A study of Mus musculus with 18 samples.

Results

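Expression of 36 genes of the cell cycle and of DNA replication was examined in mouse prostates with mutations of Elac2, a gene for the RNase Z enzyme that trims the 3′ ends of tRNA precursors. The genes were taken as a fixed list of symbols, and each matched a single row among the 55469 genes of every table. Of the 36, 22 act in mitosis and 14 in DNA replication or entry into it. Male C56NL/6N mice gave total RNA of the ventral and lateral lobes, with 3 libraries in each of 6 groups and 18 libraries in all. The groups were ELAC2+/+ (WT), ELAC2-/- (KO) and ELAC2A537T (A537T) mice at 10 weeks and at 30 weeks, and the WT mice, matched by age and litter, were the controls of both lines. In KO mice the probasin promoter drives Cre, which removes exon 8 of Elac2 in prostate epithelium, so other cells of the lobes keep the gene. A537T mice carry the threonine variant in the whole body on both copies. The TRAMP lines were not analysed here. The libraries are named by their column headers, WT being 10AF to 12AF at 10 weeks and 1AF to 3AF at 30 weeks, KO 13AF to 15AF and 4AF to 6AF, and A537T 16AF to 18AF and 7AF to 9AF. The headers carry no replicate numbers.

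Cells that divide first copy their DNA and then separate the copies. Before replication, Cdc6 and the Mcm2 to Mcm7 ring are loaded onto DNA, Cdc45 joins the ring when it starts to unwind, and Pcna, the sliding clamp of the polymerases, follows the fork, while Rrm1, Rrm2 and Tyms make deoxynucleotides and Ccne1 and Ccne2 are the E-type cyclins of entry into S phase. Mitosis is run by Cdk1 with the cyclins Ccna2, Ccnb1 and Ccnb2, by the kinases Plk1, Aurka and Aurkb, by kinetochore and checkpoint proteins (Cenpe, Cenpf, Bub1, Bub1b, Ttk), by spindle motors and their partners (Kif11, Kif20a, Kif23, Tpx2, Nusap1) and by Cdc20 and Ube2c, which direct the destruction of cyclins. Mki67, the Ki-67 antigen, and Top2a, which untangles sister DNA, are widely used to count dividing cells, and Birc5 is survivin. Mitosis genes are switched on late in the cycle through the CHR and CCAAT elements of their promoters, and replication genes earlier through E2F sites. In the adult prostate few luminal cells divide. In a bulk sample, fewer dividing cells and less RNA per dividing cell cannot be told apart.

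Of the promoters, 4 of mitosis genes and 2 of Mcm genes are shown as examples of these elements. Mki67, Cenpf, Cdc20, Ccnb2 and Mcm5 are named in comparisons below, while Mcm6 overlapped with WT in all 4. The sequences are from RefSeq on GRCm38.p6, which gave a promoter of 300 bases (250 before to 50 after the start site) for 30 of the 36 genes, 18 of mitosis and 12 of replication. Each sequence below runs 5′ to 3′ on the strand of the gene, from 200 bases before the start site to 30 after it. In the first 4, capitals mark the CHR (TTTGAA or TTCGAA) and the CCAAT box on either strand. They are Mki67 at chr7:135716350-135716579 (reverse strand), Cenpf, a large protein of the outer kinetochore, at chr1:189688057-189688286 (reverse strand), Cdc20 at chr4:118437314-118437543 (reverse strand) and Ccnb2 at chr9:70421525-70421754 (reverse strand). In the last 2, capitals mark E2F letters (TTCCCGC or TTCGCGC or TTGCCGC or TTGGCGC, either strand), and they are Mcm5 at chr8:75109309-75109538 (forward strand) and Mcm6 at chr1:128359676-128359905 (reverse strand).
Mki67: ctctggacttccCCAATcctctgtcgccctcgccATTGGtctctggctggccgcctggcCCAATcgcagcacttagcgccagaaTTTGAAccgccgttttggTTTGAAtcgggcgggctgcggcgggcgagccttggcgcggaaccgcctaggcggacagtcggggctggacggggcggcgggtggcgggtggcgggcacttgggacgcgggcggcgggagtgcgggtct
Cenpf: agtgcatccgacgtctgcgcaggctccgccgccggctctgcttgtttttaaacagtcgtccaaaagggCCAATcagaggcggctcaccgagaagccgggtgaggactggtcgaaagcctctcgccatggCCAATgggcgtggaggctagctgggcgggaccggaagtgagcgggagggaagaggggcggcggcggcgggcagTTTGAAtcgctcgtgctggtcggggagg
Cdc20: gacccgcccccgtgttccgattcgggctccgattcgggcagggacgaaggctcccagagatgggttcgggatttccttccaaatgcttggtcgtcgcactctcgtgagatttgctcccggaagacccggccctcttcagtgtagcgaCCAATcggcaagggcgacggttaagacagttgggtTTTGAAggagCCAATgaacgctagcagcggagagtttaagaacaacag
Ccnb2: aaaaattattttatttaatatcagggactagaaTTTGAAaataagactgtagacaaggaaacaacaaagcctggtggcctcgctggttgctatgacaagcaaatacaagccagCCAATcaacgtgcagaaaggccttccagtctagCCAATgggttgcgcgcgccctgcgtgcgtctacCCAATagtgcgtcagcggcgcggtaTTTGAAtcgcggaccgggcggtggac
Mcm5: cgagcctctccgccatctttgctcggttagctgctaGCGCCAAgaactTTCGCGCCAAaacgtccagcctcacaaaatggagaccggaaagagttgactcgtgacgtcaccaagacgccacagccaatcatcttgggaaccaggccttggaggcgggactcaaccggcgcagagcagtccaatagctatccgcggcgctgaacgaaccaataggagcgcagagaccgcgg
Mcm6: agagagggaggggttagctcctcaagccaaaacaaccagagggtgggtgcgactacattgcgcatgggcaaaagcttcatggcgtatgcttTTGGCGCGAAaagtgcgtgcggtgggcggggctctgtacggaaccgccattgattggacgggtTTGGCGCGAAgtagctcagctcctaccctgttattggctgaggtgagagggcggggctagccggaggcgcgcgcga

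Over the full 300 bases, 14 of 18 mitosis promoters held a CHR, against 19.4% of 27025 promoters of all genes, and the same number held a CHR and a CCAAT box, against 7.7%. A CCAAT box was in 16 of the 18 and in 9 of the 12 replication promoters (37.9% of all promoters). E2F letters were in 7 of 12 replication promoters and 3 of 18 mitosis promoters, against 9.69% of all. A CHR was in 3 of the 12 replication promoters. Matches of different elements overlapped 3 times, in 2 of the 30 promoters. A match is a run of letters, not a shown binding site.

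**Figure D1:**
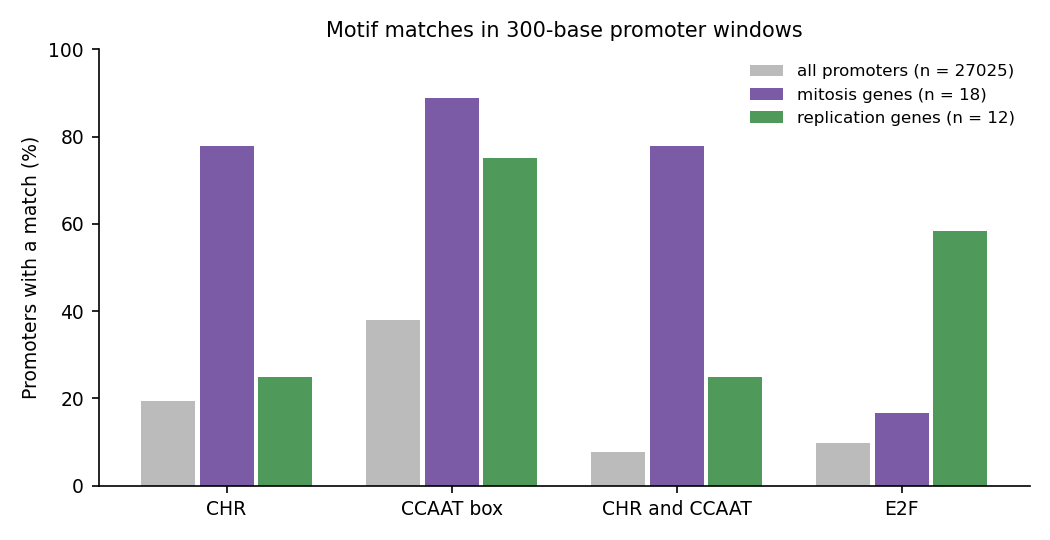
Share of 300-base promoters (percent) with at least one match on either strand, for all promoters (27025), mitosis genes (18) and replication genes (12). CHR and CCAAT matches together were in 77.8% of mitosis promoters and 7.7% of all promoters, and E2F matches in 58.3% of replication promoters and 9.69% of all.

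The deposited values are gene counts divided by 1 size factor per library, and whole reads could be recovered from them. Between 6569642 and 11225281 reads were recovered per library (median 8586877). Elac2 itself was at 119, 111 and 115 normalized counts in KO at 10 weeks against 124, 142 and 166 in WT, and at 98.4, 151 and 122 against 149.6, 153 and 194 at 30 weeks. These differences, of -0.31 ± 0.16 (SE) and -0.43 ± 0.20 on the log2 scale, did not pass the test (limma adjusted p = 0.325 and 0.478), and a count over the whole gene does not check the loss of exon 8. All 7 luminal epithelium markers were detected in every library, with a sum of 1010 to 1929 RPM (recovered reads scaled to a total of 1000000 per library). RNA of neighbouring tissue varied widely. The 10 skeletal muscle genes summed to 33588 to 107407 RPM in the WT libraries of 10 weeks, while KO ranged from 516 to 17685 and A537T from 13228 to 37920, and to at most 591 at 30 weeks. The 8 seminal vesicle genes found of 9 listed summed to 63218 to 91659 in libraries 4AF, 6AF, 7AF and 9AF at 30 weeks, and to at most 3.35 in the WT libraries and in 5AF (0.713) and 8AF (0.799). At 10 weeks the range was 65538 to 102936 in KO, 8.08 to 46367 in WT and 374 to 1914 in A537T.

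In RPM per kilobase of exon, Pcna had the highest mean level of the 36 in every group, 7.07 to 9.005. Mki67 came next in WT at 10 weeks with 5.13 but was at 1.49 at 30 weeks, behind, among others, Mcm2 (2.34), Mcm4 (2.88) and Mcm6 (2.98). Ttk, a checkpoint kinase, and Bub1 were among the least abundant, at 0.168 and 0.300 in WT at 10 weeks and 0.092 and 0.076 at 30 weeks. Ube2c was listed at 0 in library 2AF, where a count of 0 allows up to 3 reads.

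The first comparison was between ages. The summed RPM of the mitosis genes was higher at 10 than at 30 weeks in every genotype, and that of the replication genes differed less. The 22 mitosis genes summed to 139, 199 and 176 RPM in WT at 10 weeks and to 57.6, 69.6 and 61.2 at 30 weeks. In KO the sums were 176, 168 and 221 at 10 weeks and 82.5, 92.6 and 92.5 at 30 weeks. In A537T they were 159, 147 and 158 and then 104, 81.7 and 115. The lowest library at 10 weeks exceeded the highest at 30 weeks in each genotype. The 14 replication genes summed to 105 to 147 RPM over all 18 libraries. At 10 weeks WT ranged from 112 to 131, KO from 135 to 147 and A537T from 105 to 140. At 30 weeks WT ranged from 107 to 114, KO from 115 to 129.7 and A537T from 131 to 136. Only in KO was every 10-week library above every 30-week library in this sum.

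**Figure D2:**
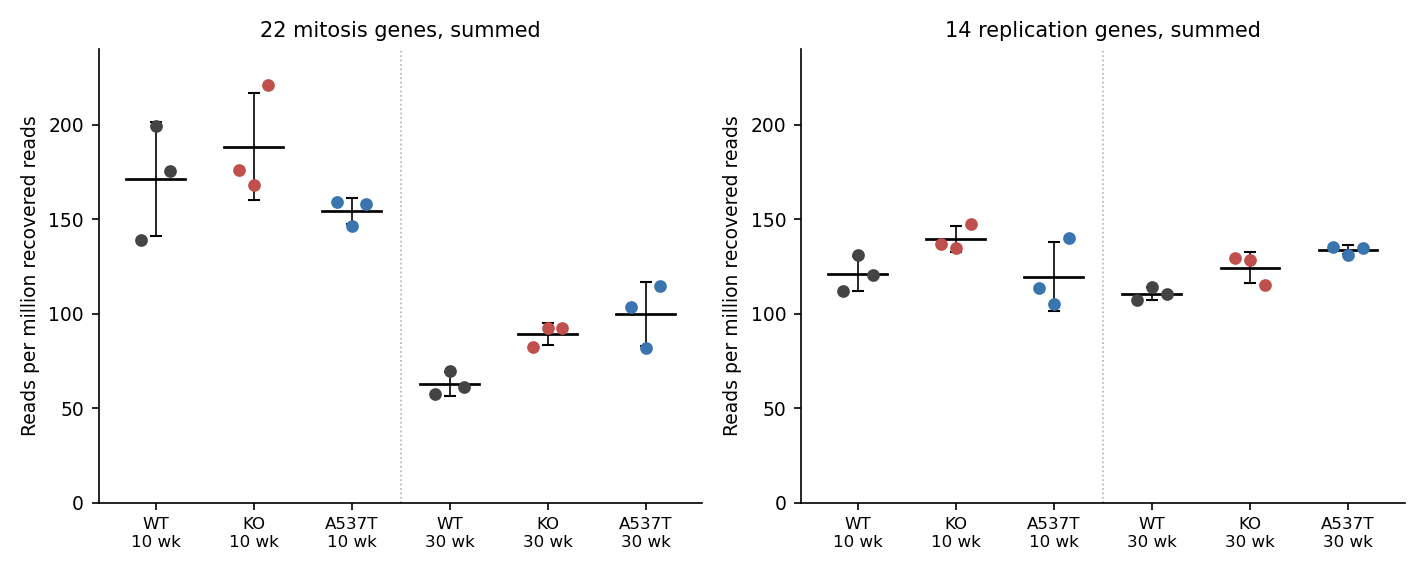
Summed RPM of the 22 mitosis genes (left) and the 14 replication genes (right). Points are libraries, lines the mean of 3 libraries and bars the SD. Mitosis sums at 30 weeks were 57.6 to 69.6 in WT and 81.7 to 115 in the mutant groups, while replication sums lay between 105 and 147 in all groups.

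Gene by gene, 19 of the 20 mitosis genes with a mean of at least 1 RPM in WT were higher in every 10-week library than in every 30-week library, where 13.4% of all genes at that level were, and none was lower throughout (16.3% of all genes). The median ratio of means was 2.94 for these genes and 0.955 for all genes. In KO it was 18 of 22, against 21.5% of all genes, with 0 lower (6.31%) and a median ratio of 2.19. In A537T it was 6 of 21, against 15.1% of all genes, with a median ratio of 1.48. Of 13 replication genes, 3 were higher throughout at 10 weeks in WT (Rrm1, Ccne2 and Cdc45), 2 in KO (Mcm7 and Rrm2) and none in A537T, where Mcm2 was lower throughout (10.8% of all genes were). The ages were normalized in separate tables, so these values are a description on the RPM scale, with no test, and the contrast of the 2 ages between genotypes, given below, passed for none of 28 genes. Without the muscle and seminal vesicle genes in the totals the mitosis counts were 19 of 20, 17 of 22 and 6 of 21, against 17.6%, 26.2% and 13.9% of all genes. Without 9AF the count in A537T was 10 (17.9% of all genes), and the replication counts became 5 in WT without 2AF, 4 in KO without 4AF, and 1 in A537T without 16AF or 8AF (16.1%, 27.7%, 22.8% and 25.3% of all genes). Markers of other cells also differed between ages. The 6 fibroblast genes summed to 1049 to 2683 RPM at 10 weeks and 521 to 893 at 30 weeks over all genotypes, and the luminal sum in WT was 1010 to 1393 at 10 weeks and 1756 to 1827 at 30 weeks. Their part in the ratios was not tested.

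The ratio between ages was highest in WT for the genes that are nearly off at 30 weeks. Ube2c, the ubiquitin-conjugating enzyme of the anaphase-promoting complex, had 1.71, 2.93 and 2.66 RPM at 10 weeks and 0.453, 0 and 0.225 at 30 weeks. Aurkb, the kinase of the chromosomal passenger complex, had 1.71, 2.35 and 1.97 and then 0.362, 0.246 and 0.225. In the mutant groups Aurkb stood higher at 30 weeks, at 0.646, 2.32 and 1.11 in KO and 0.573, 2.51 and 1.06 in A537T. The highest of these were 5AF and 8AF, the libraries with hardly any seminal vesicle RNA, which also had the highest sums of the 7 macrophage genes (240 and 326 RPM, against 88.1 to 107 in WT). In 4AF, where Aurkb was also above WT, that sum was 98.1. The part of other cells in the Aurkb values was not tested. Mki67 had 44.9, 57.0 and 52.9 RPM in WT at 10 weeks and 9.96, 16.7 and 18.2 at 30 weeks. In A537T it had 42.9, 38.0 and 40.1 at 10 weeks and 29.4, 21.7 and 34.3 at 30 weeks. The ratio of its means was 3.45 in WT, 2.72 in KO and 1.42 in A537T.

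**Figure D3:**
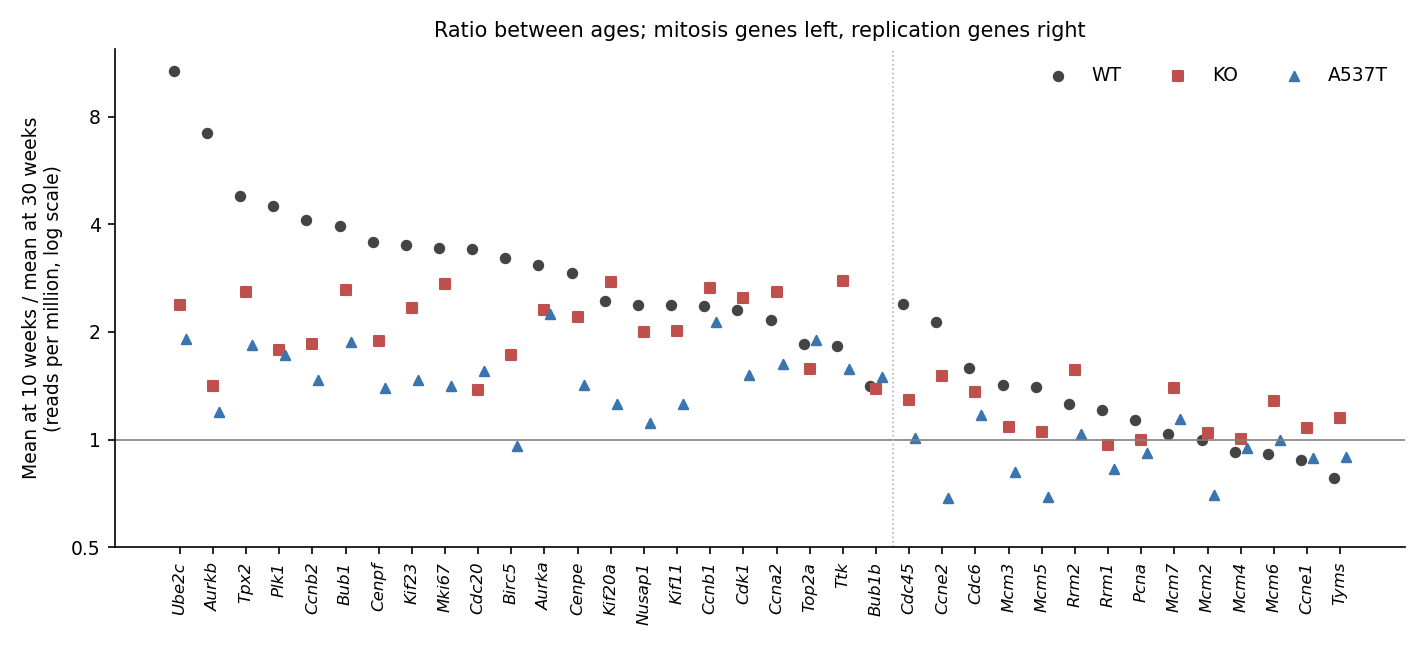
Mean RPM at 10 weeks divided by the mean at 30 weeks (log axis) for each gene in WT, KO and A537T (3 libraries per mean), mitosis genes left and replication genes right, ordered by the ratio in WT. Most mitosis genes have WT ratios above 2, up to 10.8 for Ube2c, and A537T ratios closer to 1. Most replication genes lie nearer 1, but in WT Cdc45 (2.40) and Ccne2 (2.14) also lie above 2.

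At 30 weeks both mutant groups were then compared with WT within their own tables. In each, most of the 36 genes had higher means than in WT, and none passed the test after adjustment. In KO, 32 of the 36 means were higher, and 9 genes were higher in every KO library than in every WT library (25.0%, against 8.02% of all genes with a mean of at least 1), while none was lower throughout (7.12%). The 9 were Mki67, Cdk1, Aurkb, Cenpe, Cenpf, Kif11, Ube2c, Pcna and Rrm1. In A537T, 33 of the 36 means were higher, and 9 were higher throughout (8.89% of all genes), namely Mki67, Cdk1, Bub1, Aurkb, Cenpe, Cenpf, Kif20a, Mcm2 and Cdc45. None was lower throughout in A537T (8.12% of all genes). Both comparisons use the same 3 WT libraries. Without 5AF or without 2AF the count in KO was 18 (21.5% and 12.7% of all genes). In A537T it was 22 without 8AF (22.4%) and 17 without 2AF (14.6%). Without 5AF or 8AF, the remaining libraries of that line all held seminal vesicle RNA and WT hardly any. Genotype and that RNA then cannot be told apart.

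Of the 36 genes, 28 reached the mean normalized count of 10 needed for the test in KO at 30 weeks, of which 5 had a WT mean under 10. None had an adjusted p under 0.05 by limma, nor did any of the 14729 genes tested (0%). At an unadjusted p under 0.05, 3 were higher (Cenpf, Pcna and Mki67; 5.56% of all genes) and 0 lower (5.41%). DESeq2 and edgeR on the recovered reads also called 0 of the 28, where DESeq2 called 1.93% of all genes and edgeR 0%. The median log2 fold change was 0.33 over the 28 and -0.01 over all genes tested.

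Cenpf had 49.9, 50.7 and 38.6 normalized counts in WT and 75.02, 77.1 and 116 in KO. Every KO library lay well above the WT range, and the log2 fold change was 0.91 ± 0.24 (SE, n = 3 per group, limma adjusted p = 0.386). Mki67 had 88.5, 157 and 160.4 in WT and 235, 172 and 212 in KO, with one WT library much lower than the others. Its log2 fold change was 0.64 ± 0.26 (limma adjusted p = 0.438). Pcna had 138, 146 and 173 in WT and 203, 181 and 203.5 in KO, a narrow gap with little spread, for 0.36 ± 0.14 (limma adjusted p = 0.430). Rrm1, the large subunit of ribonucleotide reductase, had 173, 187 and 138 in WT and 209, 212 and 189.6 in KO (0.31 ± 0.15, limma adjusted p = 0.503). The spindle motor Kif11 had 19.3, 19.6 and 20.8 in WT and 27.1, 30.8 and 26.8 in KO (0.48 ± 0.25, limma adjusted p = 0.520), and the kinetochore motor Cenpe differed by 0.62 ± 0.31 (limma adjusted p = 0.502).

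The other genes fixed for description had smaller or negative differences in KO at 30 weeks. Cdk1 differed by 0.28 ± 0.31, Top2a by 0.15 ± 0.21 and Mcm2 by 0.05 ± 0.13, while Ccnb1, cyclin B1, was lower by -0.54 ± 0.41 (limma adjusted p = 0.762, 0.810, 0.917 and 0.641). Ccnb1 had 16.9, 14.98 and 12.9 normalized counts in WT and 7.38, 13.95 and 9.30 in KO, so the groups overlapped. It was the only one of the 22 mitosis genes with a lower mean.

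In A537T at 30 weeks, 28 genes were tested, 1 of them, Cdc45, with a WT mean under 10, and none had an adjusted p under 0.05 by limma (0% of 14789 genes). At an unadjusted p under 0.05, 5 were higher (Cenpf, Cdc45, Mki67, Mcm2 and Mcm5; 7.35% of all genes) and 0 lower (6.28%). DESeq2 and edgeR called 0 of the 28, against 3.19% and 0% of all genes. The median log2 fold change was 0.57, against -0.01 over all genes tested, and was 0.34 without 1AF and 0.35 without 9AF.

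Cenpf was again the mitosis gene that stood farthest from WT for its spread. It had 51.3, 51.6 and 39.6 normalized counts in WT and 94.4, 64.6 and 131 in A537T, with 8AF the lowest mutant library, and differed by 0.96 ± 0.28 (limma adjusted p = 0.281). Mki67 had 90.6, 160.6 and 165 in WT and 258, 183 and 319.8 in A537T, again with 8AF lowest, for 0.88 ± 0.29 (limma adjusted p = 0.305). Without library 8AF the Cenpf difference was 1.22 and passed the threshold (limma adjusted p = 0.0331, within a range of 0.0331 to 0.695 over 14 alternatives), as did 1224 of 14801 genes. Of the A537T libraries of this age, only 8AF, like WT, had hardly any seminal vesicle RNA. Without 8AF, genotype and that RNA cannot be told apart.

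Of the replication genes, Cdc45 and Mcm2 did not overlap with WT. Cdc45 had 7.22, 6.88 and 9.90 normalized counts in WT and 20.1, 16.4 and 23.0 in A537T, a gap clear of both groups' spread, for 1.21 ± 0.39 (limma adjusted p = 0.298). It reached the mean needed for the test only through A537T. Mcm2 had 142, 124 and 153 in WT and 168, 198 and 181 in A537T, with 8AF the highest library here, for 0.38 ± 0.14 (limma adjusted p = 0.325). Pcna had 215, 133 and 209 in A537T against 142, 150.2 and 178 in WT and so overlapped (0.22 ± 0.21, limma adjusted p = 0.661).

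Kif20a, a kinesin of cytokinesis, had 13.6, 13.8 and 11.9 normalized counts in WT and 31.1, 15.4 and 25.2 in A537T (0.77 ± 0.37, limma adjusted p = 0.405). Cenpe had 16.04, 22.9 and 21.8 in WT and 34.2, 26.03 and 32.9 in A537T (0.60 ± 0.28, limma adjusted p = 0.401). Top2a (0.19 ± 0.16), Cdk1 (0.58 ± 0.39) and Ccnb1 (-0.47 ± 0.60) had adjusted p of 0.615, 0.520 and 0.744 by limma. Bub1 at 24.1 in 8AF, against 6.03 and 5.48 in 7AF and 9AF, was among the 8 genes too low to test.

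**Figure D4:**
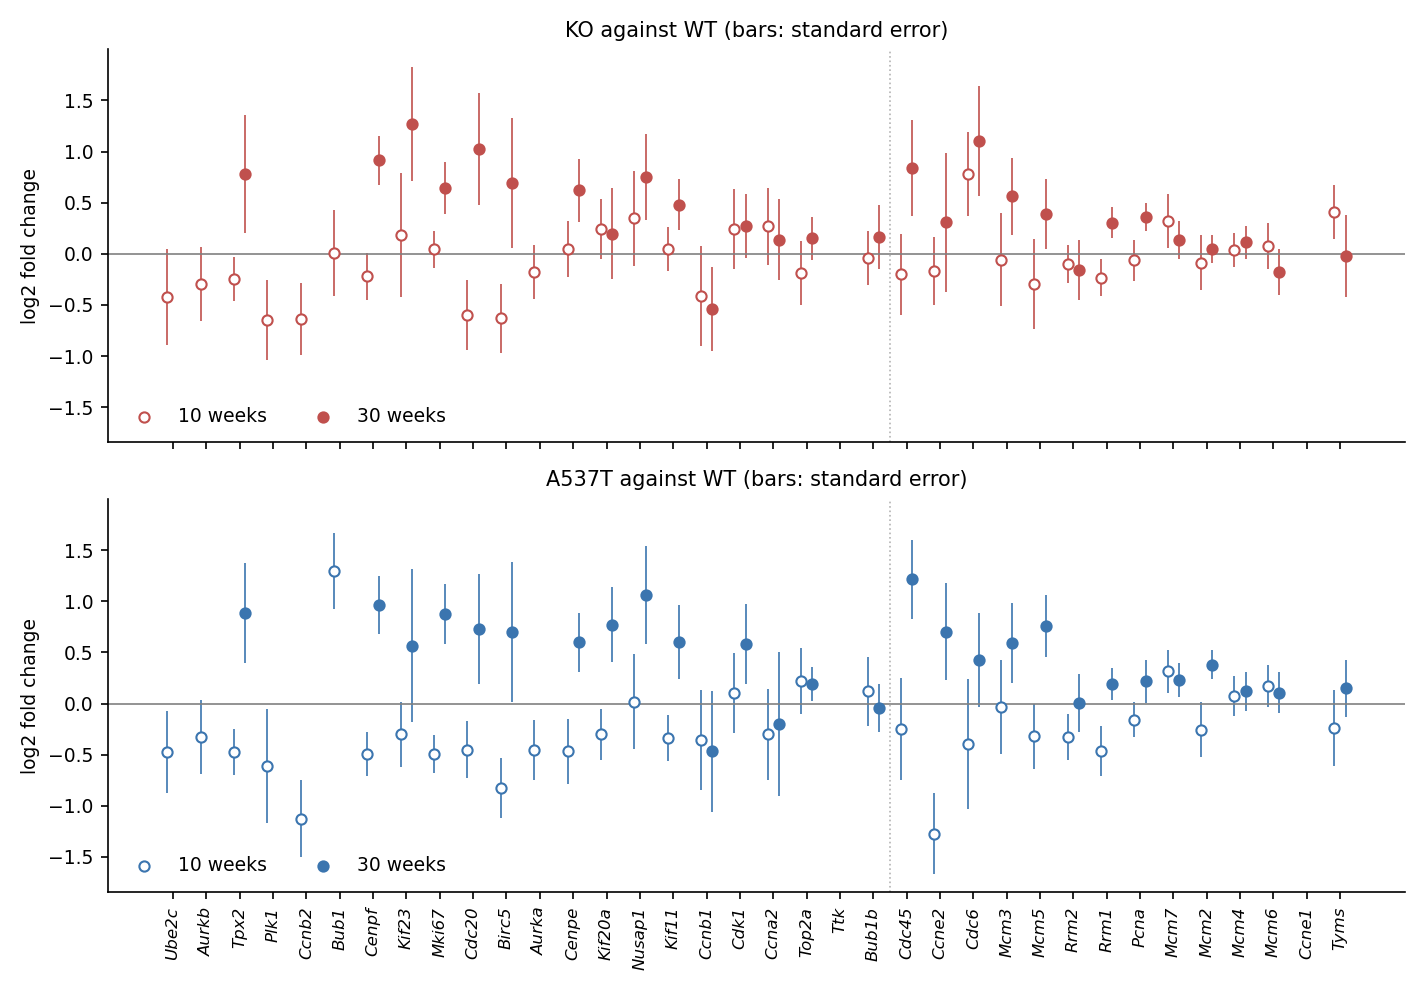
Log2 fold change of each tested gene against WT (points) with its standard error (bars), for KO (top) and A537T (bottom), open at 10 weeks and filled at 30 weeks, 3 libraries per group. Genes below a mean normalized count of 10 have no point. Filled points lie mostly above 0 and, in A537T, open points mostly below 0, with Cenpf at 0.96 at 30 weeks and -0.49 at 10 weeks.

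Seen library by library, every mutant library at 30 weeks had more mitosis genes above all WT libraries than below. Of the 22, 15, 10 and 16 were above in 4AF, 5AF and 6AF, and 18, 9 and 17 in 7AF, 8AF and 9AF, where 24.4 to 33.2% of all genes were above in a single library. At most 5 were below, in 8AF, and over the 6 libraries 24.3 to 29.5% of all genes were below. In 5AF and 8AF, with hardly any seminal vesicle RNA, the mitosis sum was 92.6 and 81.7 RPM, above the highest WT sum of 69.6. Without Mki67, Top2a and Cenpf it was 33.7 and 28.6, against 21.5 to 27.7 in WT. In 8AF this sum included Bub1 at 2.85 and Aurkb at 2.51 RPM, against at most 0.493 and 0.362 in WT. The WT and 8AF values were recovered from separate tables. The part of seminal vesicle RNA was not tested. Markers of other cells also differed between the groups. The 8 B and plasma cell genes summed to 162 to 773 RPM in A537T, 71.9 to 79.9 in KO and 51.1 to 91.5 in WT, and the 7 macrophage genes to 143 to 326, 98.1 to 240.4 and 88.1 to 107. The 6 fibroblast genes summed to 843 to 893 in A537T and 521 to 764 in WT, with KO inside the WT range. None of these markers was at 0 throughout a 30-week group, and their part in the differences was not tested.

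At 10 weeks the direction was not the same. In KO, 15 of the 36 means were higher and 21 lower, and the groups overlapped for all but 3 genes. Of 34 genes tested, 0 had an adjusted p under 0.05 by limma (0% of 15089 genes) and 0 an unadjusted one (7.97% of all genes were higher and 11.5% lower). DESeq2 and edgeR called 0 of the 34, against 4.74% and 0% of all genes. The median log2 fold change was -0.08, beside -0.01 for all genes tested. Its sign depended on the scaling, since scaling the libraries to the same total gave 0.14, beside 0.20 for all genes, and leaving out single libraries gave -0.20 (without 10AF) to 0.02 (without 11AF). Cdc6, the loader of the Mcm ring, was higher throughout, at 18.9, 22.2 and 32.0 normalized counts against 18.6, 15.8 and 8.16 (0.78 ± 0.41, limma adjusted p = 0.328). Birc5, at 12.0, 16.4 and 24.01 against 25.4, 25.0 and 29.6, and Ccnb2, at 18.9, 17.6 and 10.3 against 21.52, 21.7 and 29.6, were lower throughout (-0.63 ± 0.34 and -0.63 ± 0.35, limma adjusted p = 0.333 and 0.346). These counts of 1 higher and 2 lower of 36 compare with 10.9% and 11.9% of all genes. Without 10AF or 15AF 8 and 6 were lower (24.2% and 15% of all genes), and without 11AF, 12AF or 15AF 3, 3 and 2 were higher (14.8%, 13.5% and 14.1%).

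The fixed genes showed spread within groups larger than any difference in KO at 10 weeks. Top2a had 170.2, 399 and 355 normalized counts in WT and 239, 268 and 254 in KO, so the KO libraries lay inside the WT range (-0.19 ± 0.31, limma adjusted p = 0.750). Without WT library 10AF, the lowest, its difference was -0.57 and passed the threshold (limma adjusted p = 0.0336, within a range of 0.0336 to 0.971 over 15 alternatives), as did 2886 of 15044 genes. Mki67 differed by 0.05 ± 0.18, Cdk1 by 0.24 ± 0.39, Ccnb1 by -0.41 ± 0.49, Mcm2 by -0.09 ± 0.27 and Pcna by -0.06 ± 0.20 (limma adjusted p = 0.899, 0.744, 0.647, 0.871 and 0.871). The signs for Mcm2 and Pcna, and for Top2a, turned when libraries were scaled to the same total. Kif23, a motor of cytokinesis, had 82.3 in library 15AF against 17.6 to 35.8 in the other KO and WT libraries, and 15AF held the highest value of the age for 12 of the 22 mitosis genes.

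In A537T at 10 weeks most means were lower than in WT, 29 of 36. Of all 36, 7 were lower throughout (19.4%, against 6.09% of all genes with a mean of at least 1) and 1 was higher throughout (5.53%). The 7 were Ccnb2, Aurka, Birc5, Kif11, Kif20a, Tpx2 and Ccne2, and the exception was Bub1. Without 10AF 22 were lower throughout (17.2% of all genes), and without 16AF 12 (11.4%), while 2 were higher without 16AF or 12AF (11.4% and 9.03%). Of 34 tested genes, 0 had an adjusted p under 0.05 by limma (0% of 15131 genes), while at an unadjusted p under 0.05, 4 were lower (Ccne2, Ccnb2, Birc5 and Mki67; 3.67% of all genes) and 1 higher (2.76%). DESeq2 and edgeR called 0 of the 34, against 0.595% and 0% of all genes. The median log2 fold change was -0.32, beside 0.01 for all genes tested, and -0.19 beside 0.15 when libraries were scaled to the same total. Without 10AF it was -0.50.

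Ccne2, cyclin E2, had 22.8, 37.2 and 24.5 normalized counts in WT and 8.51, 16.2 and 9.08 in A537T, for -1.27 ± 0.40 (limma adjusted p = 0.746). Ccnb2, cyclin B2, had 22.8, 21.6 and 30.9 in WT and 14.9, 10.5 and 8.07 in A537T (-1.13 ± 0.38, limma adjusted p = 0.746). Birc5 had 25.9, 25.1 and 29.8 in WT and 13.8, 16.2 and 14.1 in A537T, with little spread in either group (-0.83 ± 0.29, limma adjusted p = 0.746). Tpx2, a spindle assembly factor, differed by -0.48 ± 0.23 and Aurka, which it activates, by -0.46 ± 0.29 (limma adjusted p = 0.746 and 0.766). Bub1 went the other way, at 9.32, 9.51 and 6.39 in WT and 25.5, 19.0 and 21.2 in A537T (1.29 ± 0.37, limma adjusted p = 0.746), and it reached the mean needed for the test only through A537T.

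Mki67 had 382, 506 and 572 normalized counts in WT and 383, 329 and 315 in A537T at 10 weeks, with the lowest WT library level with the highest mutant one (-0.49 ± 0.18, limma adjusted p = 0.746). Top2a (0.22 ± 0.32), Cdk1 (0.10 ± 0.39), Ccnb1 (-0.36 ± 0.49), Mcm2 (-0.25 ± 0.27) and Pcna (-0.16 ± 0.17) had adjusted p of 0.887, 0.965, 0.875, 0.836 and 0.844 by limma. Skeletal muscle RNA, given above, was higher in all WT than in all KO libraries at 10 weeks and overlapped between WT and A537T. In A537T the 7 luminal genes summed to 1444 to 1632 RPM against 1010 to 1393 in WT, and the 5 adipocyte genes to 169 to 178 against 81.1 to 144. The part of these sums in the values was not tested.

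**Figure D5:**
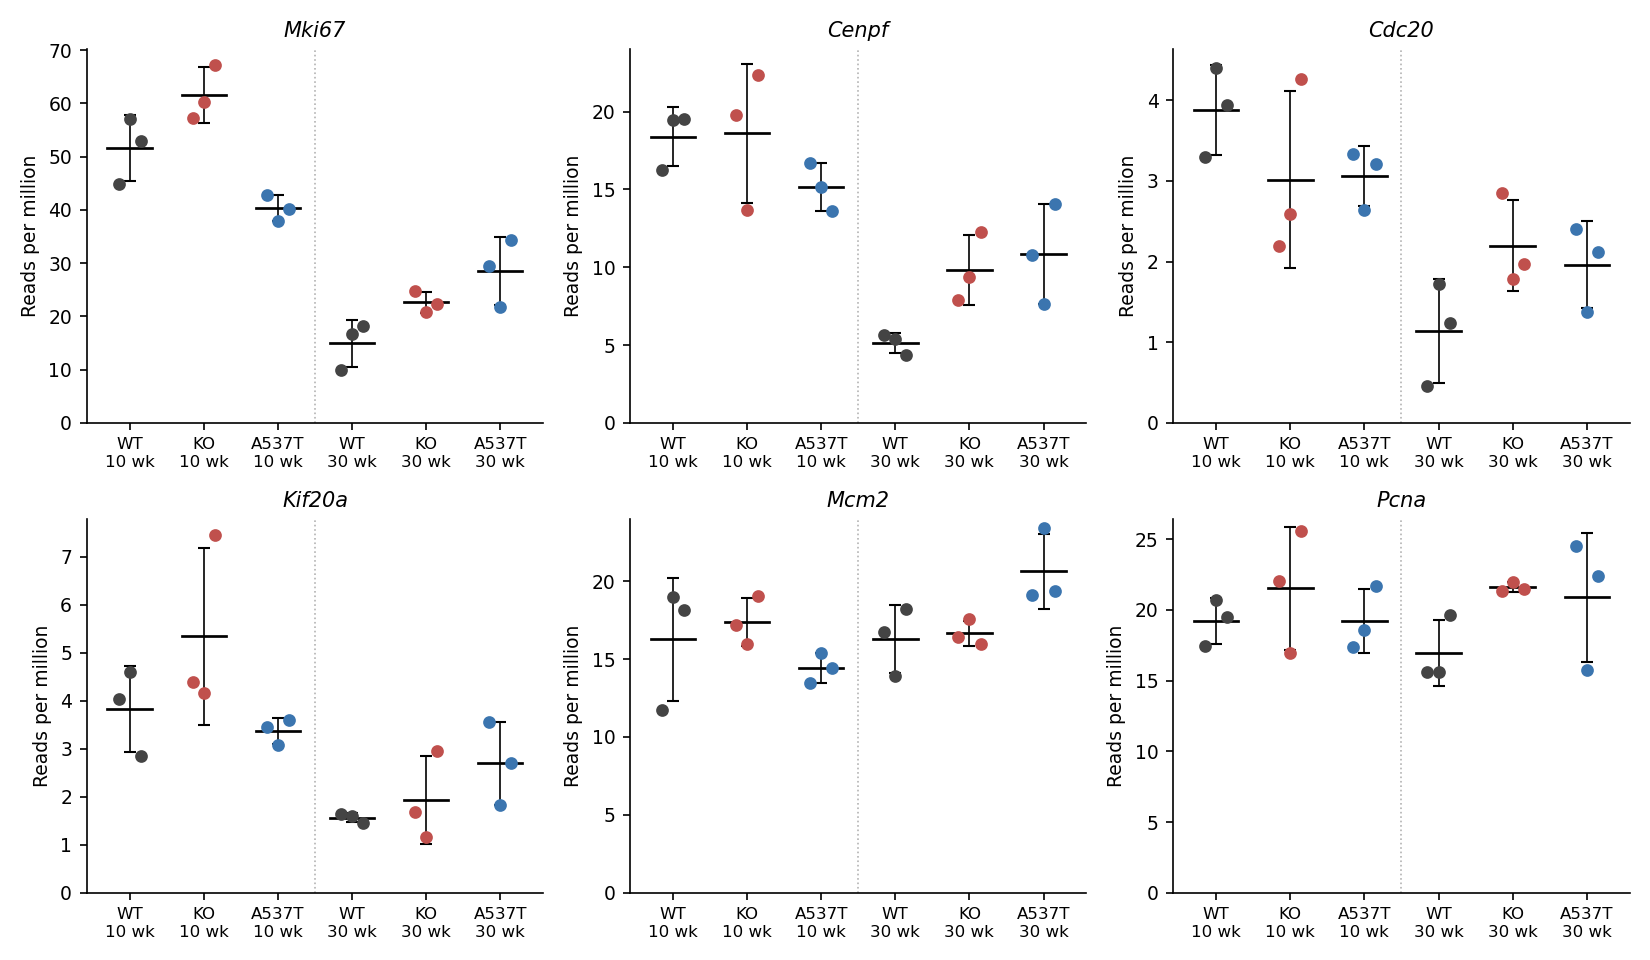
RPM of Mki67, Cenpf, Cdc20, Kif20a, Mcm2 and Pcna in each library (points), with the mean (line) and SD (bars) of 3 libraries per group. Mki67 stood at 37.98 to 67.3 at 10 weeks and 9.96 to 34.3 at 30 weeks, and Cenpf at 4.38 to 5.62 in WT at 30 weeks against 7.65 to 14.1 in the mutant groups, while Mcm2 and Pcna overlapped between ages in WT and KO.

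Whether the difference from WT changed with age was tested directly, as the difference at 30 weeks minus that at 10 weeks. Larger here means a higher signed value, so a gene below WT at 10 weeks can count without lying farther from WT at 30 weeks. In A537T the difference was larger at 30 weeks for 9 of 28 genes at an unadjusted p under 0.05 (6.18% of all genes) and smaller for 0 (5.88%), and 0 passed after adjustment by limma (0% of 14292 genes). The 9 were Cenpf, Mki67, Ccne2, Kif20a, Cenpe, Tpx2, Mcm5, Cdc45 and Kif11, of which Cdc45 reached the mean needed at 30 weeks only through A537T. Cenpf differed by 1.46 ± 0.37 and Mki67 by 1.37 ± 0.37 between the ages (limma adjusted p = 0.219 and 0.227), and both passed without library 8AF (1.72 and 1.59, limma adjusted p = 0.0265 and 0.0455, within ranges of 0.0265 to 0.485 and 0.0455 to 0.502 over 18 and 19 alternatives). Without 8AF, the A537T libraries left at 30 weeks held seminal vesicle RNA and WT hardly any, so genotype and that RNA cannot be told apart. Ccne2 differed by 1.97 ± 0.59 (limma adjusted p = 0.263). Kif20a, with 30.85, 26.6 and 28.2 normalized counts at 10 weeks against 35.2, 40.6 and 30.89 in WT, lay below WT at 10 weeks by the narrowest of gaps and above it at 30 weeks, a change of 1.07 ± 0.40 (limma adjusted p = 0.328).

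In KO the change with age was larger at 30 weeks for 3 of 28 genes at an unadjusted p under 0.05 (7.13% of all genes), smaller for 0 (4.93%), and 0 passed after adjustment by limma (0% of 14295 genes). They were Cenpf (1.13 ± 0.34), Cdc20 (1.63 ± 0.65) and Rrm1 (0.54 ± 0.23), with limma adjusted p of 0.293, 0.362 and 0.387. Cdc20, the activator of the anaphase-promoting complex, had 16.3, 21.1 and 32.0 normalized counts in KO against 26.4, 37.5 and 40.8 in WT at 10 weeks, and 27.1, 14.7 and 18.6 against 4.02, 16.1 and 10.9 at 30 weeks, with overlap at both ages. Both lines were set against the same WT libraries of each age.

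Of 86 further genes of the pathway, none passed after adjustment by limma in any comparison. At an unadjusted p under 0.05, 6 of 79 tested were higher and 2 lower in KO at 10 weeks, where 7.97% and 11.5% of all genes were. In A537T at 10 weeks 4 of 80 were higher and 3 lower (2.76% and 3.67% of all genes). In KO at 30 weeks 8 of 72 were higher and 1 lower (5.56% and 5.41%), and in A537T at 30 weeks 14 of 73 and 1 (7.35% and 6.28%). In the last, 6 of the 14 were among the 19 tested of 25 kinetochore, spindle and condensin genes, and 3 each among the 29 tested of 31 licensing and fork genes and the 9 tested of 10 cyclins and kinases of G1. Cdk inhibitors gave 2 of 5 tested, and the 11 tested regulators gave 0, with 10 of 11 below WT in fold. Some genes in these counts reached the mean needed for the test only through the group in which they were higher. Among them were Ncapg in KO and Hmmr in A537T at 30 weeks, and their number was not counted.

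The pathway genes with the smallest p in A537T at 30 weeks were Cdc25b, the phosphatase that activates Cdk1, at 77.3, 32.8 and 98.6 normalized counts against 21.7, 18.4 and 12.9 in WT, Hmmr, a spindle protein, at 23.1, 15.4 and 20.8 against 5.61, 5.73 and 2.97, and Prc1, which bundles the central spindle, at 50.2, 33.7 and 78.9 against 25.7, 26.4 and 12.9. Each was higher in all A537T libraries, by 1.81 ± 0.44, 1.87 ± 0.47 and 1.27 ± 0.41 (limma adjusted p = 0.252, 0.260 and 0.301). Of the A537T libraries, each was lowest in 8AF, which had hardly any seminal vesicle RNA. The part of that RNA was not tested. Gins2, a subunit of the replicative helicase, was lower at 30 weeks, at 10.04, 8.68 and 10.95 against 18.4, 76.8 and 35.6 (-1.81 ± 0.52, limma adjusted p = 0.274), and higher at 10 weeks, at 22.3, 18.1 and 27.2 against 9.32, 12.97 and 5.33 (1.262 ± 0.435, limma adjusted p = 0.746). Its groups did not overlap at either age. Hmmr, and Gins2 at both ages, reached the mean needed for the test only through the group in which they were higher.

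In KO at 30 weeks the condensin subunit Ncapg had 19.7, 22.0 and 32.6 normalized counts against 2.41, 5.76 and 6.93 in WT (2.15 ± 0.50, limma adjusted p = 0.375), so that it reached the mean needed for the test only through KO, and Pola1, the catalytic subunit of polymerase alpha, 106, 78.6 and 102 against 53.1, 76.0 and 54.5 (0.64 ± 0.22, limma adjusted p = 0.407). The Cdk4 and Cdk6 inhibitor Cdkn2c was also higher, at 109, 66.8 and 89.6 against 30.6, 19.6 and 36.6 (1.60 ± 0.30, limma adjusted p = 0.307). Of the KO libraries, Pola1 and Cdkn2c were lowest in 5AF, which had hardly any seminal vesicle RNA, and Ncapg in 4AF. The part of that RNA was not tested. E2f2, an activator of replication genes, was lower, at 9.84, 12.5 and 15.1 against 43.4, 39.2 and 39.6 (-1.65 ± 0.28, limma adjusted p = 0.254), with the groups far apart.

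At 10 weeks the KO libraries had more Ccnd1, cyclin D1, at 3765, 2841 and 4126 normalized counts against 2283, 1256 and 420.3 in WT (1.73 ± 0.57, limma adjusted p = 0.195). Across these libraries Ccnd1 rose in the order of the seminal vesicle sum, from 12AF (8.08 RPM) to 15AF (102936). It fell in the order of the skeletal muscle sum, and the part of neighbouring tissue was not tested. The KO libraries also had more Wee1, the kinase that restrains Cdk1 (0.73 ± 0.15), and more of the condensin subunit Smc4 (0.83 ± 0.21), and less Rpa1, which coats single-stranded DNA (-0.69 ± 0.18), each without overlap and each with a limma adjusted p of 0.183. In A537T at 10 weeks, Gmnn, geminin, the inhibitor of licensing, was lower by -1.10 ± 0.37, and Ccnd2, cyclin D2, and the p21 gene Cdkn1a were higher by 0.50 ± 0.17 and 0.88 ± 0.32 (limma adjusted p = 0.746 for each), of which Cdkn1a overlapped with WT.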

How the data were processed

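Total RNA from ventral and lateral prostate lobes was sequenced with the Illumina TruSeq protocol on a NovaSeq instrument. The authors trimmed the reads (Trim Galore 0.4.1 and cutadapt 1.18, per the submitters' processing notes), aligned them with STAR 2.7.3a to GRCm38.p6 masked for nuclear mitochondrial sequences, and quantified genes with Salmon, with correction for sequence and GC bias and with read strand taken into account. The deposited signal values, 4 tables of 6 libraries each, were made by the authors by scaling the counts of every library with its size factor from DESeq2 1.26. Tables of shrunken log2 fold changes with their errors and s-values from the authors' own comparisons were not used. No column of per-sample values was left unassigned.

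Columns were assigned to groups, not to replicates, by the library numbers in their headers, as the working description of the series gives them. The libraries held by both tables of an age are WT. Nothing in the column names says that libraries are of separate animals, so p measures the spread between libraries. Whole reads were recovered by dividing each column by the value of 1 read, and at least 99.98% of values fell within 0.01 of a whole read. The recovered reads of a WT library differed between its 2 tables for 53.6 to 64.1% of genes, for a reason not given in the sources used here, and the ratio between tables for the 36 genes was 0.72 to 1.5. Each mutant group was therefore tested within its own table. For 4 columns the size factor is so close to 1 that an automatic check of the steps does not apply.

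The test, 2-sided, was that of limma 3.58.1 (lmFit and eBayes with a mean trend, R 4.3.3) on the log2 of the normalized count plus 1, for genes whose mean in a table reached 10, and p was adjusted over all genes tested by the Benjamini-Hochberg method at 0.05. Fold changes are on that scale, which understates those of low genes. The change with age was a contrast over the 12 libraries of a line. The steps of the limma fit and of its contrast between ages were checked on simulated counts. DESeq2, edgeR and the other alternatives below were not. Values across ages are RPM (recovered reads scaled to 1000000), WT from the KO tables, for genes with a mean of at least 1. A537T values are from the A537T tables, so WT and A537T in RPM also carry the difference between tables given above. Levels per kilobase use exonic lengths from the GENCODE annotation of GRCm38, where all 36 gene IDs were found. Alternatives were pseudocount 8, minimum means of 1 and 100, scaling to the same total with or without muscle and seminal vesicle genes, quantile normalization, no mean trend, DESeq2 1.42.0 and edgeR 4.0.16 on recovered reads, and leaving out each library. The counts of genes whose groups do not overlap, against WT at each age and higher at 10 than at 30 weeks, were repeated without each library, which was chosen after seeing the data.

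The genes and the lists were chosen with earlier results of these data known. Folds are given in each comparison for Mki67, Top2a, Cdk1, Ccnb1, Mcm2 and Pcna, for every gene with an adjusted p under 0.05, and for up to 6 others with the smallest p among those whose groups do not overlap, and of 86 pathway genes for the 4 with the smallest p. The change with age names every gene with an unadjusted p under 0.05. Genes with per-library values outside these rules (Ube2c, Aurkb, Bub1 at 30 weeks, Kif23, Cdc20) were chosen after their values were seen. Reads of genes with fewer than 3 counts carry counting error that no interval here covers.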

Additional observations from a re-analysis of the deposited data

How the results depend on the processing

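No paired analysis was possible because the deposited columns carry no replicate numbers. Under every alternative with all libraries in place, the number of the 36 genes called stayed 0. Leaving out a library gave 0 to 1 in KO at 10 weeks and in A537T at 30 weeks, 0 to 2 for the change with age in A537T, and 0 elsewhere. The counts of genes without overlap became 9 to 18 (KO) and 9 to 22 (A537T) above WT at 30 weeks, and at 10 weeks 1 to 3 above and 2 to 8 below in KO and 1 to 2 above and 7 to 22 below in A537T. Those higher at 10 than at 30 weeks became 19 to 20, 18 to 20 and 6 to 10 mitosis genes and 3 to 5, 2 to 4 and 0 to 1 replication genes in WT, KO and A537T. At 10 weeks the KO median ranged from -0.20 to 0.020 and the A537T median from -0.50 to -0.24. At 30 weeks they ranged from 0.25 to 0.42 and from 0.34 to 0.62. The median in A537T at 30 weeks was 0.21 with a minimum mean of 100, which left 6 of the genes.

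In KO at 10 weeks the sign turned for Top2a (0.022 scaled to the same total, 0.033 without muscle and seminal vesicle genes), Mcm2 (0.12 and 0.14) and Pcna (0.15 and 0.16, and 0.017 with quantile normalization), and the cause was not tested. Signs of small differences also turned without single libraries. In KO at 10 weeks the ranges were -0.13 to 0.18 for Mki67, -0.57 to 0.043 for Top2a, -0.16 to 0.46 for Cdk1, -0.70 to 0.14 for Ccnb1, -0.38 to 0.11 for Mcm2 and -0.21 to 0.055 for Pcna. In A537T at 10 weeks they were -0.15 to 0.45 for Top2a, -0.29 to 0.31 for Cdk1 and -0.66 to 0.19 for Ccnb1. At 30 weeks they were -0.034 to 0.25 for Top2a and -0.036 to 0.11 for Mcm2 in KO, and -0.88 to 0.15 for Ccnb1 in A537T. Cenpf in A537T at 30 weeks ranged from 0.72 to 1.22. Many mitosis genes held under 10 normalized counts in WT at 30 weeks, where 1 read is a large step.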
